A study of Mus musculus with 16 samples.

Results

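The mRNAs of 8 genes for mitochondrial Ca2+ uptake and extrusion were examined in dopaminergic neurons of the substantia nigra pars compacta (SNc). The genes were chosen by name for their known function, with earlier results of these data known, and they are 8 of the 25006 genes listed in the count files. Mcu and Mcub encode the pore and its paralog, Smdt1, Micu2, Micu3 and Mcur1 encode further subunits and an assembly factor of the uniporter, and Slc8b1 and Letm1 encode exchangers. All 8 passed the filter on low counts, which left 12390 genes to be tested.

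Gene expression was measured by RiboTag RNA sequencing, in which a tagged ribosomal protein is made in Cre-expressing neurons and the mRNA bound to the tagged ribosomes is immunoprecipitated. There were 8 control mice, labelled DAT-Cre+/-, and 8 MCU-KO mice, labelled DAT-Cre+/- MCU fl/fl, with 1 library per mouse and postnatal day 45 given as the age of every mouse. All 16 mice carried Cre under the dopamine transporter (DAT) promoter and received the Cre-dependent RiboTag vector by stereotactic injection, 30 days before the tissue was taken. Deletion was therefore directed to DAT-expressing cells, while Mcu in other cell types of the dissected tissue was not targeted. The control mice carried Cre but no floxed Mcu alleles, so the effect of the deletion and that of the floxed background cannot be told apart. The exons that were floxed are not given in the sources used here, and the counts sum all exons of a gene, so that a transcript with deleted exons can still be counted.

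The mitochondrial calcium uniporter lets Ca2+ enter the matrix down the membrane potential. Its pore is an oligomer of MCU, into which the paralog MCUB can be built and lower the current, and the small protein EMRE, encoded by Smdt1, keeps the pore open and ties it to the EF-hand regulators that gate it in response to cytosolic Ca2+. Ca2+ leaves the matrix mainly through the Na+/Ca2+ exchanger NCLX, encoded by Slc8b1, while LETM1 is an inner membrane protein for which cation exchange against protons has been described. SNc dopaminergic neurons fire as pacemakers with recurrent Ca2+ entry, so that uptake and release by mitochondria are a constant part of their activity.

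Mcu and Mcub were compared at the sequence level first, since reads that match both paralogs could not be assigned to either. In the GENCODE M21 transcripts, the coding sequences of 1050 and 1035 bases were identical at 58.34% of 1001 aligned positions, and they shared 0 stretches of 50 bases. The stretch of 36 bases around the DIME motif, the 4 residues that line the entrance of the pore, is shown for each gene as the most important part that the paralogs share, with the 12 bases of the motif in capitals. It lies in exon 6 of 8 in each of the transcripts, on the minus strand of GRCm38, at chr10:59455003-59455038 for Mcu and at chr3:129916996-129917031 for Mcub.
Mcu: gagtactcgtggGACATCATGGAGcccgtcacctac
Mcub: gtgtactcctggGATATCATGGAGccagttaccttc
The windows differed at 6 positions, of which 1 was in the motif. Micu2 and Micu3, the paralogous EF-hand regulators, were identical at 64.72% of 1213 aligned coding positions and also shared 0 stretches of 50 bases.

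Library totals were 18999107 to 22016362 counts in the control mice and 14129527 to 20582204 in the MCU-KO mice. At this depth 3 counts, taken as the limit of detection, corresponded to 0.136 to 0.212 CPM (counts scaled to the library total), a limit that covers counting error only. All 9 markers of dopaminergic neurons were tested, and Th, Slc6a3, Slc18a2 and Ddc did not pass the threshold between genotypes. The estimate was positive for 3 of the 9 markers, with 0 adjusted p under 0.05. The summed level of all 9 was 13403 to 17448 CPM in the control mice and 11565 to 19835 CPM in the MCU-KO mice. The 18 markers of astrocytes, oligodendrocytes and microglia summed to 3198 to 6215 CPM, with a median of 4473, in the control mice and to 3881 to 7513 CPM, with a median of 4791, in the MCU-KO mice. The glial estimate was positive for 15 of the 18 markers, with 1 unadjusted p and 0 adjusted p under 0.05, and 0 of the 18 markers were at 0 in all mice.

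Of the pore genes, Mcu was lower in MCU-KO by the point estimate, with a wide overlap between mice, and Mcub was found in some mice only. Mcu (ENSMUSG00000009647, chromosome 10, 59446984 to 59616692 of GRCm38) had normalized counts, which are counts divided by a size factor for each library, of 120.3 at the lowest, 401 at the median and 828.2 at the highest in the control mice. In the MCU-KO mice the values were 5.82, 246.3 and 410.1. Of the MCU-KO mice, 3 of 8 lay below the lowest control mouse and 7 of 8 below the control median, while 4 of 8 control mice lay above the highest MCU-KO mouse. By edgeR, Mcu had a log2 fold change of −1.19 with a 95% confidence interval of −2.41 to 0.04 and a standard error of 0.59, an unadjusted p of 0.0569, and an adjusted p of 1.00 over all genes tested. On the linear scale this interval runs from 0.188 to 1.03 times the control level, so neither a loss of most of the mRNA nor an unchanged level lay outside it. The paper verified the knockout separately, reporting lower Mcu mRNA by quantitative PCR of RiboTag RNA. That is a measure other than the counts over all exons used here. It also verified the knockout by function, reporting lower baseline matrix Ca2+ and a smaller matrix response to a metabotropic glutamate receptor agonist in MCU-KO neurons. The mean of log2(normalized count + 1) was 8.53 ± 1.08 (SD, n = 8) in control and 6.95 ± 1.98 in MCU-KO (SD, n = 8), for which a two-sided exact permutation test over 12870 assignments gave p = 0.0541.

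The difference of 1.57 on this log2 scale depended on single mice. MCU-KO mouse 5 had 6 counts of Mcu, and without it the difference was −0.98 (p = 0.108, exact permutation test). The p of the same exact permutation test fell to between 0.0298 and 0.049 when control mouse 1 or 8, or MCU-KO mouse 1, 2, 6, 7 or 8, was left out. With the mean log2 CPM of the 18 glial markers as a covariate, the log2 fold change of Mcu was −1.07 (unadjusted p of 0.0933, edgeR). The part that reads from glial cells with intact Mcu had in the remaining Mcu counts was not tested. In such bulk libraries, fewer cells of a type and less RNA per cell cannot be told apart.

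Mcub (ENSMUSG00000027994, chromosome 3, 129914960 to 129970206), which encodes the paralog of the pore subunit, had at least 1 count in 3 of 8 control mice and in 5 of 8 MCU-KO mice. Its normalized counts were 71.82, 163.8 and 69.88 in control mice 1, 2 and 7, and 241.3, 120.8, 30.46, 93.31 and 290.9 in MCU-KO mice 1, 2, 4, 6 and 7. The genotypes overlapped, since mice of each had no count and the detected values ran into each other. The lowest count above 0 was 68 in control and 33 in MCU-KO, so the gene was either at 0 or well above the limit of detection. Among the tested genes with a mean level within 1.5-fold of that of Mcub, 87.4% of 1300 also had 0 counts in some mouse, but 1.69% had 0 counts in at least 8 of 16 mice, about the most that the filter on low counts admits. The difference between genotypes was 1.34 on the log2 scale with a standard error of 1.60, and its interval of −1.97 to 4.66 allows a large change in either direction. The estimate was 0.85 without MCU-KO mouse 7 and 2.26 without control mouse 2.

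**Figure D1:**
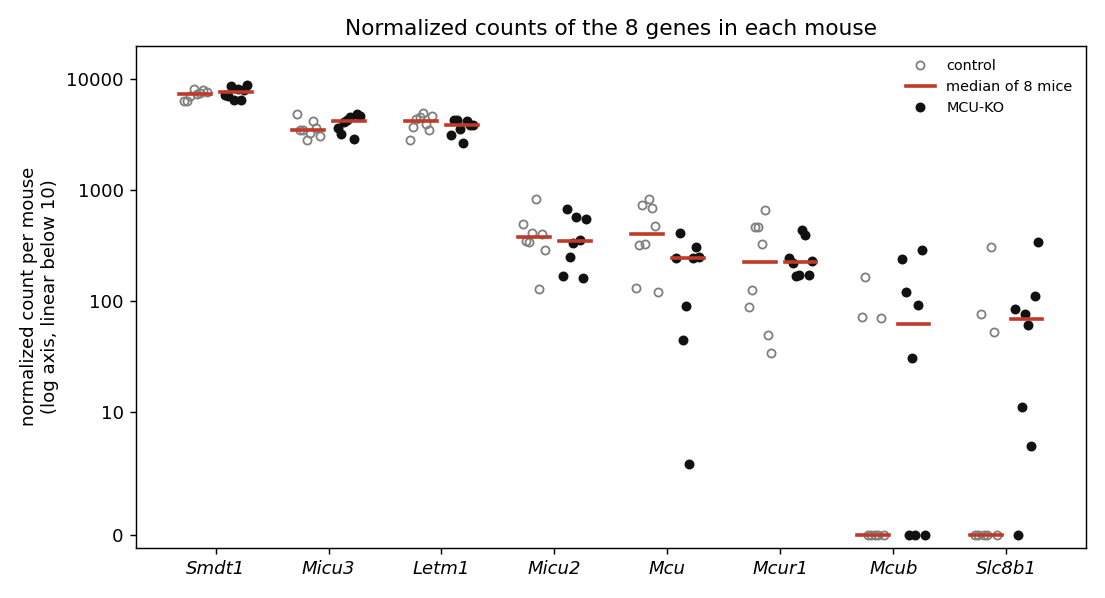
Normalized count of each gene in each mouse, on a log axis that is linear below 10, for control mice (open circles) and MCU-KO mice (filled circles), with red lines at the median of 8 mice. Smdt1, Micu3 and Letm1 lie in narrow bands, Mcu reaches down to 5.82 in 1 MCU-KO mouse, and Mcub and Slc8b1 are at 0 in 8 of 16 and 6 of 16 mice.

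Smdt1 (ENSMUSG00000022452, chromosome 15, 82338959 to 82349091) was the most abundant of the 8 mRNAs per exon length and varied least between mice. The normalized counts of this EMRE gene were 6352 at the lowest, 7411 at the median and 8264 at the highest in the control mice, and 6480, 7609 and 8871 in the MCU-KO mice. The ranges of the genotypes covered nearly the same values. MCU-KO differed from control by 0.06 on the log2 scale, with a standard error of 0.09 and an interval of −0.13 to 0.24 that leaves room for no more than a small change in either direction. Of its exon bases, 16.565% overlap Pheta2 on the same strand, a gene with 0 counts in 14 of 16 mice, and reads from the shared bases cannot be told apart.

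Micu3 and Micu2, the EF-hand regulators that set how the pore responds to Ca2+, differed in level and in spread between mice. Micu3 (ENSMUSG00000039478, chromosome 8, 40307458 to 40386308), a paralog found mainly in nervous tissue, had 2843, 3521 and 4853 normalized counts in the control mice (lowest, median, highest) and 2872, 4212 and 4857 in the MCU-KO mice. Its log2 fold change was 0.16 (standard error 0.13, interval −0.11 to 0.42). Micu2 (ENSMUSG00000021973, chromosome 14, 57916261 to 57999262) had 129.9, 376.5 and 831.9 normalized counts in control and 161, 346 and 678 in MCU-KO, a difference of −0.08 on the log2 scale (standard error 0.38, interval −0.87 to 0.72). For each of the regulators the genotypes overlapped over most of their ranges, and the bound on a change was tighter for Micu3 than for Micu2. Of the exon bases of Micu3, 4.177% overlap genes on the opposite strand, and the strand setting of the counting is not given.

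Mcur1 (ENSMUSG00000021371, chromosome 13, 43538393 to 43560191), which encodes an assembly factor of the uniporter, had 33.96, 227.5 and 663.7 normalized counts in control and 169.1, 226.5 and 437.5 in MCU-KO. All 8 MCU-KO mice lay inside the range of the control mice. The medians were nearly equal, while the highest value was 19.5 times the lowest in control and 2.59 times the lowest in MCU-KO. The estimated log2 difference was −0.13 (standard error 0.54, interval −1.26 to 1.00), and its sign turned with the method, with 0.53 in limma-voom with quality weights.

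The extrusion genes differed in detection, Letm1 having counts in every mouse and Slc8b1 in some. Letm1 (ENSMUSG00000005299, chromosome 5, 33739673 to 33782817) had 2853, 4191 and 5008 normalized counts in the control mice and 2677, 3877 and 4272 in the MCU-KO mice, a log2 difference of −0.13 (standard error 0.12, interval −0.39 to 0.13). The genotypes overlapped, although 4 of 8 control mice exceeded every MCU-KO mouse. Slc8b1 (ENSMUSG00000032754, chromosome 5, 120511168 to 120534024), the gene of the exchanger NCLX, had at least 1 count in 3 of 8 control mice and in 7 of 8 MCU-KO mice.

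The normalized counts of Slc8b1 were 77.05, 305.8 and 52.41 in control mice 3, 6 and 7. In MCU-KO mice 1 and 3 to 8 they were 85.56, 11.03, 76.62, 61.11, 7.247, 111.5 and 338.2. The genotypes overlapped, and the highest value of each came from 1 mouse that stood apart from the others. The estimated log2 fold change was 0.66 (standard error 1.48, interval −2.42 to 3.73), and it was −0.11 without MCU-KO mouse 8 and 2.22 without control mouse 6. At a minimum of 10 counts, 6 in place of 7 MCU-KO mice had Slc8b1, and the number of control mice stayed at 3. Mcub and Slc8b1 were found together in 1 control mouse and 4 MCU-KO mice, and 3 control mice had neither, so the mice without a count were not the same for the pair.

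Of the 8 genes, 0 had an adjusted p under 0.05 between genotypes in the edgeR fit, where 0.178% of all genes tested did. The unadjusted p was under 0.05 for 0 of the 8, against 4.41% of all genes tested. With DESeq2 in place of edgeR, Mcu had an unadjusted p of 0.0405 and an adjusted p of 0.795, and its adjusted p was 0.402 to 1.00 over all alternatives. The normalized counts of the genotypes overlapped for all 8 genes, and they did not overlap for 0.258% of all genes tested. These shares of all genes are small, so a count of 0 among 8 genes does not set the members apart. Estimates were positive for 4 and negative for 4 of the genes, with a median of −0.01 against 0.003 over all genes tested. The 95% confidence interval stayed within a 2-fold change in either direction for Smdt1, Micu3, Letm1 and Micu2, which are 4 of 8 or 50%, compared with 51.8% of all genes tested.

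**Figure D2:**
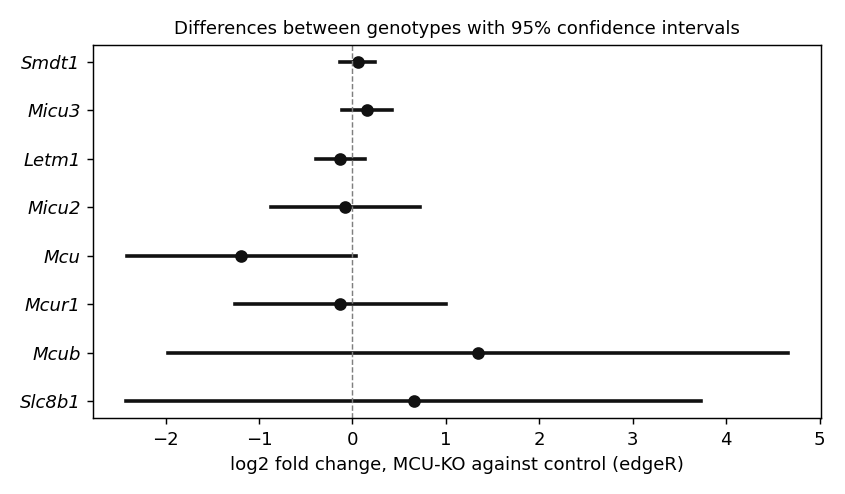
Log2 fold change of each gene in MCU-KO against control (points) with its 95% confidence interval (lines) from edgeR, n = 8 mice per genotype. All 8 intervals include 0, that of Mcu ends at 0.04, and those of Mcub and Slc8b1 span more than 6 units.

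The spread between mice set how much these comparisons could show, and it was compared with the spread that counting alone gives. The coefficient of variation of Smdt1 was 9.62% in control and 12.2% in MCU-KO, that of Letm1 17.2% and 15.6%, and that of Micu3 17.8% and 18%. Micu2 varied by 50% and 50.9% and Mcu by 60.4% and 69.7%. Counting error alone would give 1.13% for Smdt1 and 4.56% for Mcu in the control mice, a small part of the spread between libraries. This value covers the sequenced reads only. Variation from the steps before sequencing was not measured and cannot be told apart from differences between mice.

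The variation of Mcur1 was 85.3% in control and 40.7% in MCU-KO, and that of Mcub 157% and 118%. Slc8b1 was the most variable of the 8, with 195% and 127%. Among control mice, the variation of Slc8b1 exceeded that of 97.5% of the tested genes with a mean level within 1.5-fold of its own, while that of Smdt1 exceeded 14.6% of such genes. Mcu lay at 62.8% in control and at 84.6% in MCU-KO on the same measure, and Mcur1 at 87.1% and 20.6%. Micu3 lay at 48.7% and 54.6% and Micu2 at 51.1% and 60.5%, so each was near the middle of the genes of its own level. The differences in spread between genotypes were not tested.

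**Figure D3:**
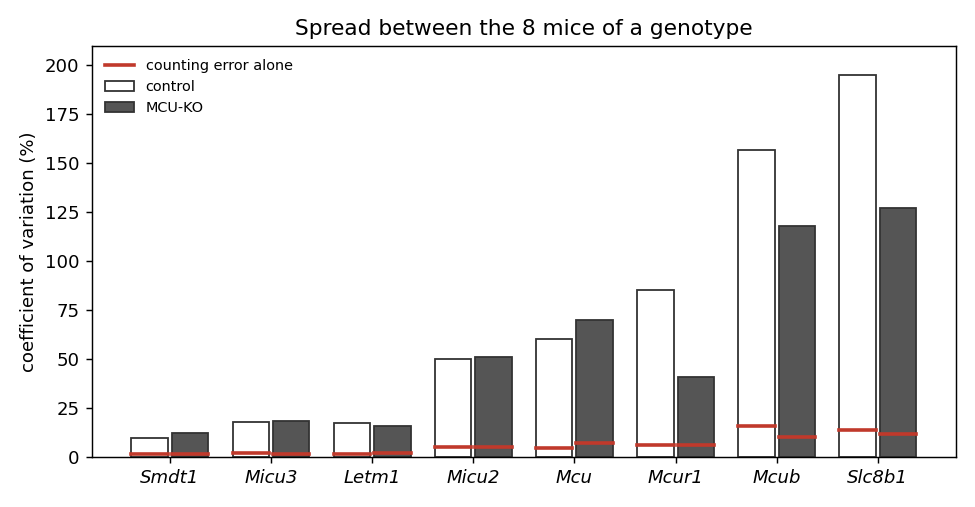
Coefficient of variation (%) of the normalized counts of each gene among 8 control mice (white bars) and 8 MCU-KO mice (grey bars), with red lines at the value that counting error alone gives. The bars rise from 9.62% for Smdt1 to 195% for Slc8b1 in control, far above the red lines for all 8 genes.

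To compare different genes, normalized counts were divided by the length of the union of annotated exons, and the genes were ordered within each genotype. The mean level per kb in the control mice was 4961 for Smdt1, 589.5 for Micu3, 423.1 for Letm1, 131.5 for Micu2, 65.45 for Mcu, 39.35 for Mcur1, 28.97 for Mcub and 15.71 for Slc8b1. In MCU-KO the means were 5164, 656.7, 386.9, 124.9, 28.81, 36.01, 73.67 and 24.95 in the same order of genes. The place of Mcub in MCU-KO depended on the kind of mean. Its mean of log2 values was 3.92, below 4.16 for Mcu and 5.08 for Mcur1. By the mean of log2 values, the control level per kb of Smdt1 was higher than that of 98.1% of all genes tested. That of Mcu was higher than that of 39.1%, and that of Slc8b1 higher than that of 2.41%. The mRNA of the EMRE gene thus stood far above that of the pore gene, and the exchanger gene Slc8b1 far below Letm1.

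Neighbours in this order were compared within each mouse, with p-values from an exact two-sided sign-flip test adjusted over 14 comparisons (7 pairs in each genotype). Smdt1 exceeded Micu3 in 8 of 8 control mice, with a mean log2 ratio of 3.09 ± 0.35 (SD, n = 8, adjusted p = 0.0182, exact), and in 8 of 8 MCU-KO mice, with 2.99 ± 0.20 (SD, n = 8, adjusted p = 0.0182, exact). Micu3 exceeded Letm1 in 7 of 8 control mice by 0.48 ± 0.49 (SD, n = 8, adjusted p = 0.0312, exact) and in 8 of 8 MCU-KO mice by 0.76 ± 0.43 (SD, n = 8, adjusted p = 0.0182, exact). Letm1 exceeded Micu2 in 8 of 8 mice of each genotype, by 1.82 ± 0.78 in control and 1.79 ± 0.83 in MCU-KO (SD, n = 8, adjusted p = 0.0182 for each, exact). The upper 4 places thus passed the test in each genotype, although the mean difference of Micu3 and Letm1 in control was about as large as its SD and 1 control mouse had the reverse order. The test does not cover uncertainty in the exon lengths. Before division by length, the mean normalized counts of Micu3 and Letm1 were 3627 and 4083 in control, the reverse order, and 4041 and 3734 in MCU-KO.

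Lower in the order, the levels were less well separated. Micu2 exceeded Mcu in 7 of 8 control mice, by 1.15 ± 1.33 on the log2 scale, which did not pass the threshold (SD, n = 8, adjusted p = 0.0851, exact). In MCU-KO, Micu2 exceeded Mcu in 8 of 8 mice by 2.63 ± 2.29 (SD, n = 8, adjusted p = 0.0182, exact). There the longest annotated transcript as length gave 1.76 (adjusted p = 0.0684, exact). Mcu exceeded Mcur1 in 7 of 8 control mice by 1.09 ± 1.15 (SD, n = 8, adjusted p = 0.041, exact). Among MCU-KO mice it did so in 4 of 8, and the log2 ratio averaged −0.93 ± 2.24 (SD, n = 8, adjusted p = 0.447, exact). Mcur1 and Mcub did not differ beyond the spread in either genotype (adjusted p = 0.197 in control and 0.483 in MCU-KO, exact), nor did Mcub and Slc8b1 (adjusted p = 0.564 and 0.711, exact). The smallest p this test can give is 0.0078.

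**Figure D4:**
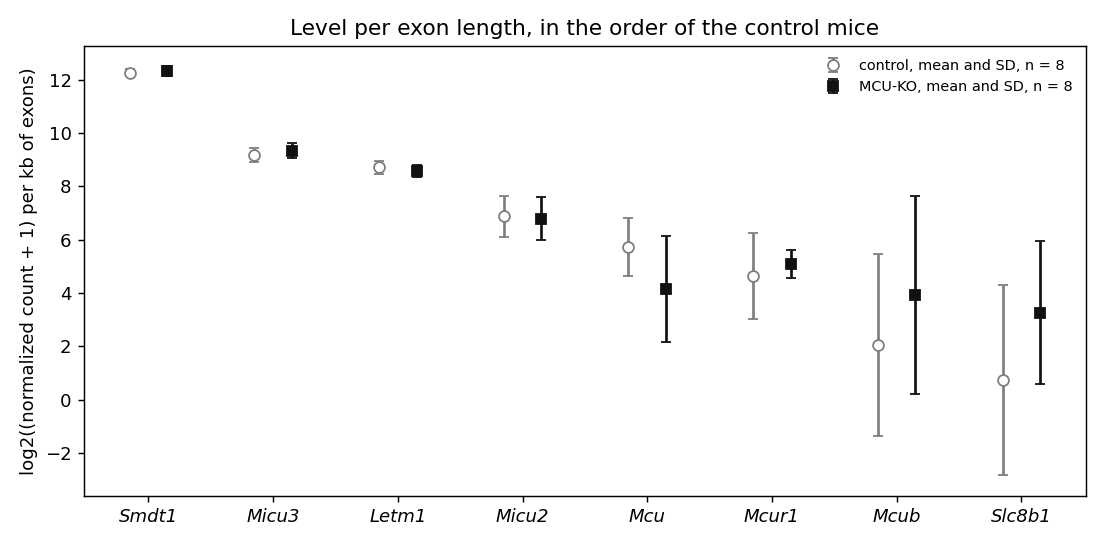
Mean and SD over 8 mice of log2((normalized count + 1) per kb of exons) for each gene, in the order of the control mice, with open circles for control and filled squares for MCU-KO. The levels fall from Smdt1, at 12.27 in control, and the error bars widen toward Mcub and Slc8b1.

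The proportions of the mRNAs within a mouse were then compared between genotypes for 8 ratios, by an exact two-sided permutation test adjusted over these 8. The log2 ratio of Mcu to Smdt1 per kb was −6.54 ± 1.06 (SD, n = 8) in control and −8.17 ± 2.04 (SD, n = 8) in MCU-KO, a difference of −1.63 (adjusted p = 0.123, exact). That of Micu3 to Mcu was 3.45 ± 1.13 (SD, n = 8) in control and 5.18 ± 2.11 (SD, n = 8) in MCU-KO, a difference of 1.73 (adjusted p = 0.123, exact). Mcur1 to Mcu rose in the point estimate from −1.09 ± 1.15 to 0.93 ± 2.24 (SD, n = 8 each), a difference of 2.01 with the smallest unadjusted p of the 8 (0.0182, adjusted p = 0.123, exact). These 3 ratios share Mcu, and without MCU-KO mouse 5 their differences were −1.02, 1.10 and 1.29.

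Smdt1, Micu3, Letm1 and Micu2 had counts in every mouse. The ratios chosen for comparison among them differed by 0.25 or less between genotypes on the log2 scale. Micu3 to Letm1, with a mean log2 ratio of 0.48 in control and 0.76 in MCU-KO, was not among the ratios compared. Micu3 to Smdt1 had a log2 ratio per kb of −3.09 ± 0.35 (SD, n = 8) in control and −2.99 ± 0.20 (SD, n = 8) in MCU-KO, a difference of 0.10 (adjusted p = 0.572, exact). Letm1 to Smdt1 had −3.57 ± 0.23 and −3.75 ± 0.31 (SD, n = 8 each), a difference of −0.18 (adjusted p = 0.271, exact), and Micu2 to Micu3 had −2.30 ± 0.85 and −2.55 ± 0.88 (SD, n = 8 each), a difference of −0.25 (adjusted p = 0.572, exact). Mcub to Mcu and Slc8b1 to Letm1, which rest on genes at 0 in many mice, differed by 3.43 (adjusted p = 0.123, exact) and 2.66 (adjusted p = 0.195, exact). None of the 8 ratios passed the threshold after adjustment.

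**Figure D5:**
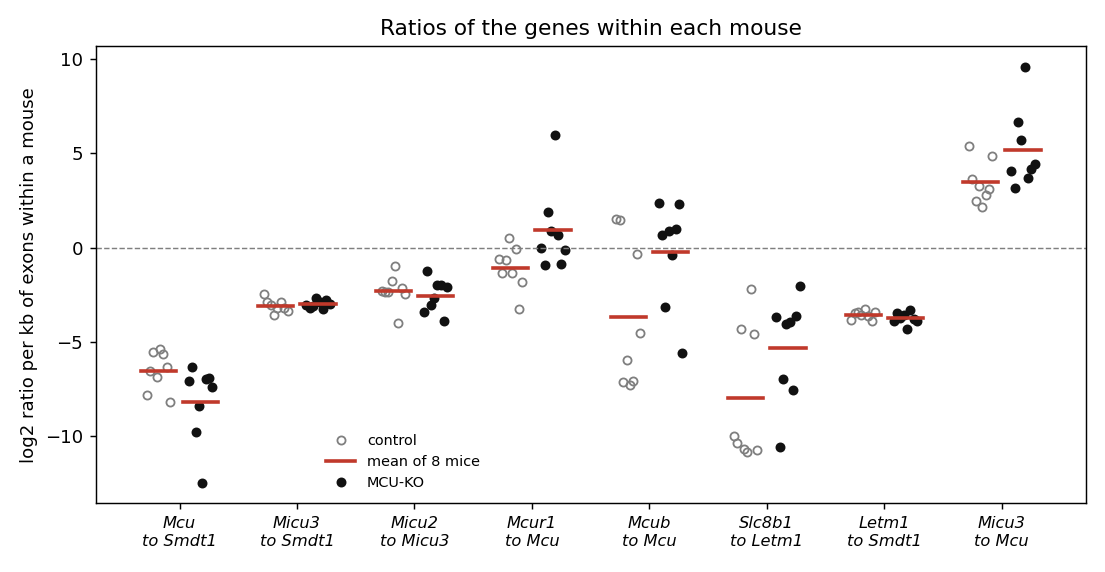
Log2 ratio per kb of exons for 8 pairs of genes in each mouse, with open circles for control, filled circles for MCU-KO and red lines at the mean of 8 mice. The ratios of Micu3 and Letm1 to Smdt1 are narrow in both genotypes, and the ratios that hold Mcu spread further in MCU-KO than in control, except that of Mcub to Mcu.

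A list of 25 other genes of mitochondrial Ca2+ handling was compared in the same way. It held proteases and scaffolds of the inner membrane that process uniporter subunits, voltage-dependent anion channels, Ca2+-dependent carriers and exchangers of the plasma membrane, and all 25 were tested. The adjusted p was under 0.05 for 0 of them, against 0.178% of all genes tested. The unadjusted p was under 0.05 for 2 of the 25, both with higher values in MCU-KO, against 4.41% of all genes tested. Estimated changes were positive for 9 and negative for 16, where 6241 and 6149 of all genes tested were. The median of the 25 estimates was −0.078, against 0.003 over all genes tested. The interval stayed within a 2-fold change in either direction for 16 of 25 (64%), against 51.8% of all genes tested.

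Yme1l1, which encodes a protease of the inner membrane that faces the intermembrane space, had 252.7 normalized counts at the lowest, 646.3 at the median and 879.5 at the highest in the control mice, and 570.2, 906.1 and 1313 in the MCU-KO mice. It differed by 0.52 on the log2 scale (standard error 0.24, interval 0.02 to 1.01, unadjusted p of 0.0413 and adjusted p of 1.00 in edgeR). Maip1, which encodes a partner of the matrix-facing protease that handles the EMRE precursor, had 302.3, 478.5 and 650.8 in control and 386.5, 681.5 and 961.2 in MCU-KO. The genotypes overlapped for each of these genes, and the log2 fold change of Maip1 was 0.55 (standard error 0.26, interval 0.01 to 1.08, unadjusted p of 0.0445 and adjusted p of 1.00 in edgeR). Next in order of p were Spg7, a subunit of the matrix-facing protease, at a log2 fold change of 0.47 (unadjusted p of 0.109), Stoml2, an inner membrane scaffold, with −0.22 (unadjusted p of 0.109), and Opa1, the inner membrane fusion protein, with −0.26 (unadjusted p of 0.128).

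The genes whose ranks over the 16 mice were most like those of Smdt1 and Micu3 were named as a description. Likeness was the mean absolute difference of ranks over the 16 mice, which had a median of 5.38 over 12382 genes. For Smdt1 these were Rpsa at 1.88, Elob at 2 and Strip2 at 2.12, with Micu3 nearest among the members at 4.5. For Micu3 they were Itga6 at 1.88, Enpp5 at 2 and Sub1 at 2.12, with Slc8b1 at 3. In each case the nearest member was less alike than the 3 genes named. All these ranks share the libraries and their size factors, and Rpsa is a ribosomal protein gene whose reads can also match processed pseudogenes.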

How the data were processed

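The authors trimmed reads (cutadapt in the methods, Trim Galore in the submitters' processing notes), used STAR for alignment to mm10 and htseq-count with an Ensembl annotation for counting, and deposited whole-number counts without normalization. Tool versions, strandedness and annotation release are not given in the sources used here. The paper gives 9 MCU-KO mice for RNA sequencing, and 8 were analysed here.

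Symbols, coordinates and exon lengths came from GENCODE M21 (GRCm38, the build named mm10), and 24942 of 25006 identifiers had a symbol. Genotypes were compared with edgeR 4.0.16 (filterByExpr with at least 10 counts, scaled to library size, in at least 8 mice; TMM; quasi-likelihood test; Benjamini-Hochberg adjustment over 12390 genes; threshold 0.05). Mcub reached the filter's level in 8 mice and Slc8b1 in 9. The study used DESeq2, here version 1.42.0 and an alternative that also gave the size factors for normalized counts. Other alternatives were limma 3.58.1, upper-quartile normalization, no filter, at least 10 counts in every mouse, the mouse number as block, glial markers as covariate, the longest transcript as length, a pseudocount of 10 in place of 1, and leaving out each mouse. Exact tests permuted mice or flipped the signs of per-mouse log2 ratios (256 patterns). P-values are over mice, each with 1 library. The fits were tested on simulated counts. R 4.3.3, Python 3.11.15, numpy 2.4.6, pandas 2.3.3 and matplotlib 3.10.9 were used.

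All 8 members were named, and of the list of 25 genes those with an unadjusted p under 0.05 followed by the smallest p up to 5 genes. The members and lists were chosen with earlier results of these data known. Other genes of the uniporter complex, and the genes most alike in rank to Mcu, are not reported here.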

Additional observations from a re-analysis of the deposited data

Results flagged for a closer look

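Of 18 groups of 8 values examined (each gene in each genotype, and the library totals), 4 held a mouse whose distance to its neighbour was large for the range of its group, a flag that chance gives to about 1 group in 20 for normally distributed values. That rate was not measured for values with many zeros, as those of Mcub and Slc8b1. Control mouse 2 had 163.8 normalized counts of Mcub, where the other control mice had 0 to 71.82. Control mouse 6 had 305.8 normalized counts of Slc8b1, where the others had 0 to 77.05. MCU-KO mouse 8 had 338.2 normalized counts of Slc8b1, where the others had 0 to 111.5. The library of MCU-KO mouse 8 held 14129527 counts, where the other MCU-KO libraries held 19897268 to 20582204, and the part of this lower depth in its Slc8b1 value was not tested.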

How the results depend on the processing

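Under every alternative run, 0 of the 8 genes passed the threshold of 0.05 after adjustment. Of all genes, 90 were called with DESeq2 and 14 with the replicate block, against 22 with edgeR and 18 to 24 when 1 mouse was left out. The difference of Mcu in the exact permutation test was −1.82 to −0.98 when 1 mouse was left out. Micu2 had log2 fold changes of −0.24 to 0.16, Mcur1 of −0.30 to 0.20, Slc8b1 of −0.11 to 2.22 and Mcub of 0.85 to 2.26 when 1 mouse was left out. With limma-voom, Mcu had a log2 fold change of −1.56 (interval −2.99 to −0.13, unadjusted p of 0.0337, adjusted p of 0.646). In the same fit Mcur1 had 0.53, Slc8b1 3.07 (unadjusted p of 0.0907) and Mcub 2.00. In edgeR, the unadjusted p of Mcu was 0.0309 to 0.118 when 1 mouse was left out. The log2 ratio of Micu2 to Mcu in MCU-KO was 1.76 with the longest transcript as length, and that of Mcur1 to Mcub in MCU-KO was −0.12 with a pseudocount of 10. The filter of at least 10 counts in every mouse removed Mcu, Mcub and Slc8b1. Of the other results, including the order of the 4 most abundant mRNAs and the 8 ratios, none changed direction or side of the threshold after adjustment under the alternatives run.

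Same-numbered mice are different animals, and their deviations from the genotype means had correlations of −0.0612 to 0.0309, none being the best of its mouse. With the mouse number as replicate block, the log2 fold change was −1.24 for Mcu (unadjusted p of 0.163, edgeR), 0.44 for Mcur1, 2.59 for Mcub and 4.76 for Slc8b1. At this depth, counting error alone gave coefficients of variation of 15.6% for Mcub and 13.6% for Slc8b1 in control, against 157% and 195% between mice, and no fit at matched depth was run.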
